A study of Mus musculus with 6 samples.

Results

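The 10 genes described here, Tnf, Il6, Il12a, Il12b, Il23a, Il27, Ifnb1, Nos2, Osm and Acod1, are classical inflammatory effectors of macrophages. They were named from the 753 genes of an RNA panel by their role, with earlier results of these data known, and by no threshold on their values. The panel was read in macrophages grown from the bone marrow of factor H knockout mice (FHKO, 3 libraries) and of wild-type mice (control, genotype WT, 3 libraries), with 6 libraries in all. The growth protocol, which is the same text for all samples, gives an age of 8 to 10 weeks in a sentence that names the FHKO mice but not the wild type. They list no treatment besides genotype, so no stimulus was named for either group, and the sources used here do not give the culture's growth factor. Nothing in the labels says whether the 3 libraries of a group came from separate mice, so p-values measure the spread between these libraries, which may be technical. The labels also do not say whether the knockout lay in every tissue or which part of the gene was removed, and the transcript of factor H itself was not analysed here, so the genotype labels were not checked against it.

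Factor H is a soluble protein that restrains the alternative pathway of complement on cell surfaces and in plasma. Macrophages exposed to microbial products and interferon-gamma switch on a set of secreted cytokines and antimicrobial enzymes, a state called classical activation. The effectors are made in quantity after signals from pattern-recognition receptors reach NF-kB and interferon regulatory factors, and most of them are kept low in unstimulated cells. The comparison asked whether macrophages without factor H carried more RNA of these effectors than wild-type macrophages with no stimulus named.

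Of the 10 effector genes, Tnf and Osm were measured above background (the mean plus 2 SD of the library's negative controls) in all 6 libraries, Nos2 in 1 library, and the other 7 in none. The 1 library with Nos2 above background was a control. By this limit no effector was above background in an FHKO library while below it in all controls. Of the 3 effectors high enough to test (20 or more in at least 3 libraries), 0 passed an adjusted p of 0.05, against 1 of 490 genes (0.204%) over the panel, and the log2 differences of Tnf, Osm and Nos2 were 0.19, 0.17 and 0.16, close to the median of 0.16 over all 490 genes tested.

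The gene values are normalised counts, which behave as whole probe counts multiplied by 1 factor per library. A search for this factor that starts from the smallest value did not settle it in FHKO library 2 or in control library 2, where it is close to 1. Genes at a floor of 1 numbered 2 in FHKO library 2 and 3 in control library 3. A search over a range of factors gave one for every library, and the counts that follow rest on it. The recovered counts summed to between 717503 and 1348064 per library, and FHKO library 1 and control library 1 were the shallowest. The panel carried 8 negative-control rows that match no mouse RNA by design of such panels. Multiplied by each library's count step, they averaged 14.5, 12.3 and 13.3 in FHKO libraries 1 to 3, and 15.5, 8.46 and 12.9 in control libraries 1 to 3. The background limit used below is that mean plus 2 SD, at 29.1, 23.9 and 26.4 in FHKO and 24.6, 16.5 and 29.0 in control libraries. The same negative row was the highest in every library, tied in control library 2, and it raises each limit. It stood at 29.0, 21.6 and 25.8 in FHKO and 23.3, 14.1 and 24.7 in control libraries 1 to 3. Of all 753 genes, 423 (56.2%) exceeded the limit in all 6 libraries, against 2 of the 10 effectors. The lowest positive-control row stood at 40 to 66 counts in each library, against negative-control means of 8.38 to 14.8 counts. The cells carried the markers of macrophages: 10 of 10 macrophage marker genes, among them Adgre1 and Csf1r, were above the limit in all libraries. Markers of other cells on the panel stayed mostly below it, but few were there to be read. The genes of B cells (1 on the panel), dendritic cells (4), natural killer cells (1), mast cells (2) and stroma (2) had 0 members above it in all libraries. Of 8 listed T cell markers 0 were on the panel, so T cells were not checked. Of 8 neutrophil genes, Csf3r and S100a8 were above it in all libraries, while Ly6g, Mpo, Cxcr2 and Camp were below it in all 6. The summed level of the neutrophil genes was 283 to 375 in FHKO and 300 to 343 in control libraries.

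**Figure D1:**
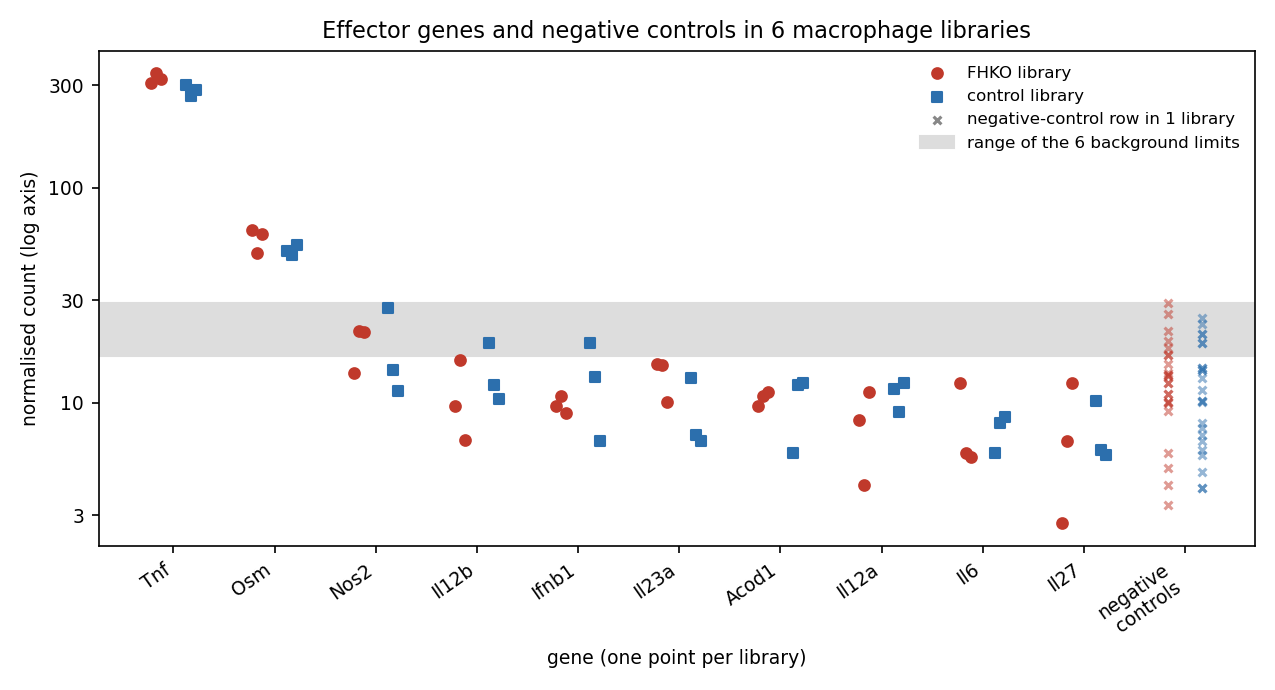
Normalised counts (log axis) of the 10 effector genes in each library, with FHKO libraries as red circles and control libraries as blue squares, beside the 8 negative-control rows of each library as crosses. Tnf and Osm lie above the shaded range of the 6 background limits (16.5 to 29.1), Nos2 sits within or below that range, and the other 7 genes overlap the negative controls.

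Tnf encodes tumour necrosis factor, a cytokine that acts on its receptors on many cell types and drives inflammation. Its normalised count was 308, 340 and 319 in FHKO libraries 1 to 3, against 301, 266 and 284 in control libraries 1 to 3. The lowest FHKO library was thus just above the highest control library, and the groups did not overlap. Of the 490 genes tested, 112 (22.9%) had all FHKO values above all control values, and 31 (6.33%) had all FHKO values below, so separation upward was common on the panel. The groups averaged 322 ± 16.4 in FHKO and 283 ± 17.6 in control macrophages (SD, n = 3 each). The log2 difference, FHKO minus control, was 0.19 ± 0.10 (standard error; limma, adjusted p = 0.309, unadjusted p = 0.114). Its 95% interval of -0.06 to 0.43 corresponds to between 0.961 and 1.35 times the control level. Before adjustment 110 genes (22.4%) had a p under 0.05, and Tnf was not among them. The recovered counts behind Tnf were 223, 409 and 284 in FHKO and 207, 263 and 298 in control libraries. The counting interval of FHKO library 1 alone (exact Poisson, 95%) ran from 269 to 351 in normalised counts, which spans all 3 control values but the lowest. Such intervals cover counting error only. Tnf was 21.2 to 27.7 times the negative-control mean in FHKO and 19.5 to 31.4 times in control libraries.

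Osm encodes oncostatin M, a cytokine of the interleukin-6 family that macrophages and T cells release. It had normalised counts of 63.6, 49.9 and 60.6 in FHKO libraries 1 to 3, against 50.9, 48.5 and 54.3 in control libraries 1 to 3. FHKO libraries 1 and 3 were the highest of the 6, and FHKO library 2 lay between control libraries 1 and 2, so the groups overlapped. The means were 58.0 ± 7.17 in FHKO and 51.2 ± 2.89 in control macrophages (SD, n = 3 each), which gave a log2 difference of 0.17 ± 0.15 (standard error; limma, adjusted p = 0.503). The interval of the difference, -0.19 to 0.53, allows between 0.877 and 1.45 times the control level. Osm stood 4.07 to 4.55 times above the negative-control mean in FHKO and 3.29 to 5.73 times in control libraries, so part of each value is background.

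Nos2 encodes inducible nitric oxide synthase, the enzyme that makes antimicrobial nitric oxide in activated mouse macrophages. Its normalised count was 13.8, 21.6 and 21.3 in FHKO libraries 1 to 3, against 27.6, 14.2 and 11.4 in control libraries 1 to 3. The one value above its library's limit was that of control library 1, and the control range was wider and enclosed the FHKO range. Nos2 exceeded 4, 7 and 7 of the 8 negative-control rows in FHKO libraries 1 to 3, and 8, 6 and 4 of them in control libraries 1 to 3. Nos2 entered the test because 3 of its 6 values reached 20, 2 of them in FHKO and 1 in control libraries. The log2 difference was 0.16 ± 0.35 (standard error; limma, adjusted p = 0.797), and its interval, -0.67 to 0.98, allows between 0.630 and 1.98 times the control level. The means were 18.9 ± 4.43 in FHKO and 17.7 ± 8.68 in control macrophages (SD, n = 3 each).

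Of the effectors tested, 0 of 3 had an adjusted p under 0.05 in limma, and 0 of 3 had an unadjusted p under 0.05. The values were scaled by reference genes, and 352 of the 490 genes (71.8%) lay above 0 on that scale. Among the 20 reference genes Hprt, used in the scaling, had the widest range over libraries (1.38 in log2). Its log2 difference was 0.61 (limma, adjusted p = 0.217). Alas1, also used and next widest (0.64), had -0.36 (limma, adjusted p = 0.151). Relative to the median gene the differences of Tnf, Osm and Nos2 were 0.03, 0.01 and 0.00. When the medians of the libraries were set equal instead, the median gene fell by 0.29, and Tnf, Osm and Nos2 turned to -0.11, -0.12 and -0.12 (limma, adjusted p of 0.679, 0.761 and 0.879). The direction of the 3 genes thus follows the choice of scaling and was not settled by these data. Fewer cells that make an RNA and less RNA per cell cannot be told apart in such bulk libraries.

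**Figure D2:**
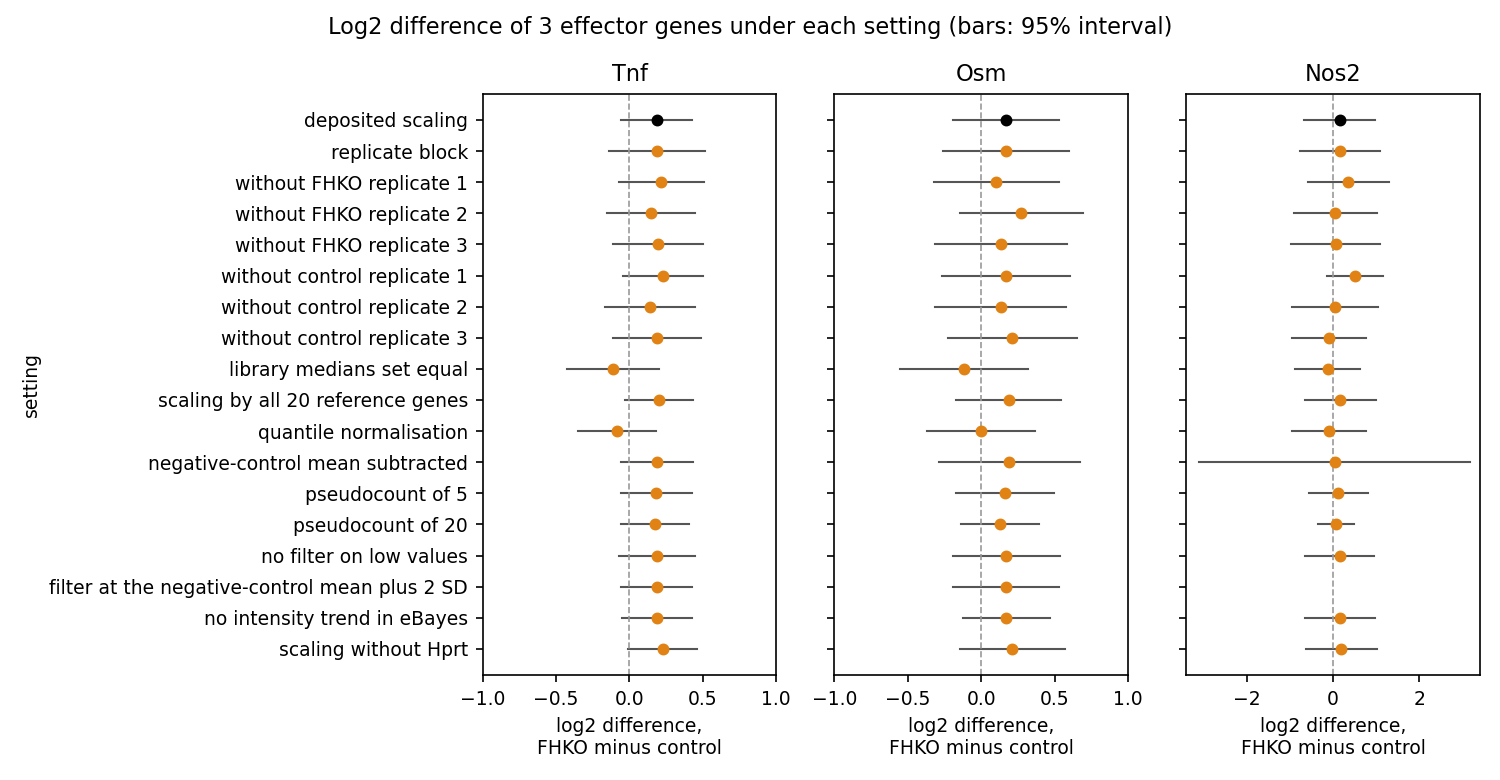
Log2 difference (FHKO minus control) of Tnf, Osm and Nos2 under the deposited scaling (black) and each alternative (orange), with 95% limma intervals as bars. The Nos2 panel has a wider axis, every interval crosses 0, and with library medians set equal the 3 points lie at -0.11, -0.12 and -0.12.

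The IL-12 family of heterodimeric cytokines was represented by 4 genes, all of which stayed at background. Il12a and Il12b encode the subunits of interleukin-12, which pushes T cells towards interferon-gamma. Il12b had normalised counts of 9.67, 15.8 and 6.74 in FHKO libraries 1 to 3, against 18.9, 12.1 and 10.5 in control libraries 1 to 3. Il12a had 8.29, 4.16 and 11.2 in FHKO libraries, against 11.6, 9.09 and 12.4 in control libraries. For both genes the groups overlapped, and 0 of 6 values passed the library's limit. Il23a encodes the subunit that joins the Il12b product to form interleukin-23, a cytokine that sustains interleukin-17 responses. It had 15.2, 15.0 and 10.1 in FHKO libraries, against 13.1, 7.07 and 6.66 in control libraries. The means were 13.4 ± 2.88 in FHKO and 8.94 ± 3.60 in control macrophages (SD, n = 3 each), but the groups overlapped and the values were those of the negative controls. Il27 encodes a subunit of interleukin-27, which both activates and limits T cells. It had 2.76, 6.66 and 12.4 in FHKO libraries, against 10.2, 6.06 and 5.71 in control libraries, and none of its values reached its library's negative-control mean.

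Il6 encodes interleukin-6, a cytokine of fever and the acute-phase response. Its normalised count was 12.4, 5.83 and 5.61 in FHKO libraries 1 to 3, against 5.82, 8.08 and 8.57 in control libraries 1 to 3. All 6 values were under the negative-control mean of their own library, and no value of Il6 was detectable at this depth. Ifnb1 encodes interferon-beta, which starts the antiviral programme through the type I interferon receptor. It had 9.67, 10.8 and 8.98 in FHKO libraries, against 18.9, 13.1 and 6.66 in control libraries, so its higher values were those of controls. Acod1 encodes the mitochondrial enzyme that makes itaconate, a metabolite strongly induced by lipopolysaccharide. It had 9.67, 10.8 and 11.2 in FHKO libraries, against 5.82, 12.1 and 12.4 in control libraries. The 3 FHKO values of Acod1 lay inside the range of the controls and below every limit. These 7 genes reached 20 in 0 libraries and were not tested in the main fit. In the alternative without a filter on low values, 0 of the 10 effectors passed, and the lowest adjusted p of the 7 was 0.412 (limma, Il23a). A difference that is small against the background could not have been seen in them.

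The 8 effectors other than Tnf and Osm can be set against the 8 negative-control rows of the same library, since both are sums of 8 probes. This grouping was made after the values were seen and carries no test. The 8 genes summed to 81.5, 90.7 and 87.6 normalised counts in FHKO libraries 1 to 3, and the 8 negative rows to 116, 98.2 and 107. In control libraries 1 to 3 the 8 genes summed to 112, 81.8 and 74.2, and the negative rows to 124, 67.7 and 103. The ratio of genes to negative rows was 0.702 to 0.924 in FHKO and 0.722 to 1.21 in control libraries. Only in control library 2 did the genes sum to more than the negative rows. The 8 genes are those not above the limit in every library, so a sum near background follows in part from the grouping. Such a sum cannot show whether any single gene exceeded background, and the highest negative row weighs on the negative sums.

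**Figure D3:**
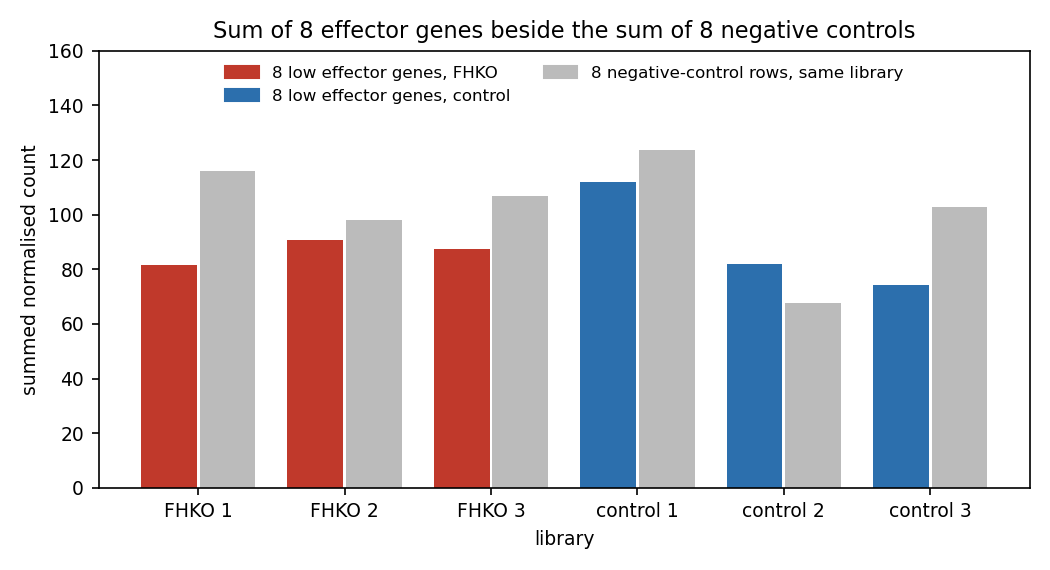
Summed normalised counts of Il6, Il12a, Il12b, Il23a, Il27, Ifnb1, Nos2 and Acod1 in each library (red, FHKO; blue, control) beside the sum of that library's 8 negative-control rows (grey). The red bars stand at 81.5 to 90.7 and each is lower than the grey bar of its library; the blue bar is higher than the grey one in control library 2.

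Several of these genes are textbook targets of NF-kB, so the letters of the NF-kB-like motif GGGNNNNNCC were sought on both strands of the promoters that could be matched. RefSeq promoters of build GRCm38.p6, from 250 bases before to 50 after the start of transcription, were at hand for 6 of the 10 effectors. Those of Tnf, above background, and of Il6 and Ifnb1, at background, are shown to set a measured gene beside unmeasured ones, written 5′ to 3′ on the gene's strand with matches in capitals.

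Tnf promoter (chr17:35201958-35202257, - strand): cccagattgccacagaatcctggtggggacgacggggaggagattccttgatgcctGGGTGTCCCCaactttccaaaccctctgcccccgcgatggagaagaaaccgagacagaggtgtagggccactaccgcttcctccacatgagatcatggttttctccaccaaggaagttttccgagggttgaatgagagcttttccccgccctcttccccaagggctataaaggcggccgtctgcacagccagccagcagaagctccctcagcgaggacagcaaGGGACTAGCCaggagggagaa

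Il6 promoter (chr5:30012864-30013163, + strand): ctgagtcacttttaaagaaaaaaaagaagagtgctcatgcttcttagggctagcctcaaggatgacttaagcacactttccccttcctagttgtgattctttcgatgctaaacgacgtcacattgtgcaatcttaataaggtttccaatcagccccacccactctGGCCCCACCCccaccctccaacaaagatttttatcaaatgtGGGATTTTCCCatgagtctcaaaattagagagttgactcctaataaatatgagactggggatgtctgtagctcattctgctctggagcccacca

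Ifnb1 promoter (chr4:88522745-88523044, - strand): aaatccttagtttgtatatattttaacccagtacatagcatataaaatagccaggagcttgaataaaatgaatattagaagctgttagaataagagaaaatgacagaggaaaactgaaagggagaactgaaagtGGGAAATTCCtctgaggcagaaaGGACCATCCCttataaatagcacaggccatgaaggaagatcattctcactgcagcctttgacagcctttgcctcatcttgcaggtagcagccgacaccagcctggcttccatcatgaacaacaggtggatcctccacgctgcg

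Tnf had matches that start at -194 (GGGTGTCCCC) and 30 (GGGACTAGCC) from the start of transcription. Il6 had them at -85 (GGCCCCACCC) and -44 (GGGATTTTCCC, in which a pair of matches overlap), and Ifnb1 at -116 (GGGAAATTCC) and -93 (GGACCATCCC). Acod1 had 1 match and Il12b had 0, and of the promoters of Il12a 1 had matches and 1 had none. The motif is loose and occurs in 50.8% of all 32851 promoters of this length. Its presence did not divide the effector above background from those at background. A match describes letters only.

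The listed microbial sensors, adaptors and transcription factors on the panel were above background in all libraries, whereas 8 of the 10 effectors were not. The lists below were made from textbook knowledge, and earlier results of these data were known when they were made. Of 13 listed microbial sensors and adaptors 8 were on the panel, and 8 of 8 were above the background limit in all libraries. So were 11 of 11 transcription factors (of 17 listed), 5 of 6 receptors (of 12 listed) of the effector cytokines and 5 of 8 surface markers. The same held for 7 of 9 negative regulators (of 12 listed) and 11 of 23 further inflammatory mediators. Over the whole panel 423 of 753 genes (56.2%) were above it in all libraries. The shares of surface markers (62.5%) and mediators (47.8%) were close to that. The mediators below the limit in every library were Il1a, Cxcl1, Cxcl3, Cxcl9, Cxcl11, Lif, Csf2 and Csf3, most of them cytokines or chemokines that macrophages make on stimulation. Of the surface markers, Cd38, Fpr2 and Cd69 were below it in every library, and of the negative regulators, Socs3 and Arg1 were.

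Among the further inflammatory mediators 15 were tested and 0 passed the threshold in either direction (limma). Their median log2 difference was 0.27, against 0.16 over all tested genes, and -0.02 against -0.13 under equal library medians. Cxcl2, a chemokine that attracts neutrophils, was at 82.4 ± 10.3 in FHKO and 63.7 ± 6.61 in control macrophages (SD, n = 3 each), a log2 difference of 0.36 (limma, adjusted p = 0.218) or of 0.07 under equal library medians. Il15, a cytokine that maintains lymphocytes, had a log2 difference of 0.46 and S100a8, a subunit of calprotectin, had -0.29 (limma, adjusted p = 0.271 for each), which became 0.17 and -0.58 under equal library medians. Il1b, which encodes interleukin-1 beta, was above background in all libraries, with 47.0, 52.4 and 35.9 in FHKO libraries, against 32.0, 32.3 and 46.6 in control libraries. Its groups overlapped. It falls outside the naming rule and was chosen after its values were seen.

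Receptors for the effectors were above background in all libraries, except Il27ra, which was above it in 5 of 6. Of 6 tested, 0 passed the threshold, and their median log2 difference was 0.17, or -0.12 under equal library medians. The receptor genes of tumour necrosis factor did not separate by group: Tnfrsf1a, named here after its values were seen, had 1455, 1462 and 1426 in FHKO libraries, against 1462, 1351 and 1327 in control libraries. Il6ra, the interleukin-6 receptor alpha chain, was at 416 ± 64.7 in FHKO and 277 ± 14.4 in control macrophages (SD, n = 3 each). Its log2 difference of 0.57 did not pass the threshold (limma, adjusted p = 0.138) and was 0.28 with library medians set equal. Ifnar2 and Ifnar1, the subunits of the type I interferon receptor, had 0.23 and 0.19 (limma, adjusted p = 0.213 and 0.293), which became -0.06 and -0.11 under equal library medians. For these 3 receptors, named for having the smallest p of the list, the FHKO values lay above the control values in all libraries. The same held for 112 of all 490 tested genes (22.9%).

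Of 5 tested surface markers 0 passed, with a median log2 difference of 0.09, or -0.20 under equal library medians. Cd40, a co-stimulatory receptor, had 0.33, Cd86, a ligand of T-cell co-stimulation, had 0.16 and Fcgr1, the high-affinity IgG receptor, had 0.09 (limma, adjusted p of 0.293, 0.586 and 0.524). Under equal library medians the 3 had 0.04, -0.13 and -0.20. Of 8 sensors and adaptors 0 passed, with a median of 0.21, or -0.08 under equal library medians. Tlr4, the lipopolysaccharide receptor, had 408, 842 and 395 in FHKO libraries, against 159, 238 and 377 in control libraries, a log2 difference of 1.08 (limma, adjusted p = 0.169) or of 0.79 under equal library medians. FHKO library 2 was the highest by far, and FHKO library 3 lay close to control library 3. Tlr9 and Tlr2, sensors of microbial DNA and lipoproteins, had 0.31 and 0.22 (limma, adjusted p = 0.217 and 0.323), and then 0.01 and -0.07 under equal library medians.

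Of 11 tested transcription factors 0 passed, with a median log2 difference of 0.03, or -0.26 under equal library medians, and 6 above 0. Atf3, which restrains inflammatory transcription, had -0.28, Nfkb1, a subunit of NF-kB, had 0.32 and Hif1a, a factor of the response to low oxygen, had 0.75 (limma, adjusted p of 0.148, 0.155 and 0.217). Under equal library medians Atf3 passed the threshold at -0.57 (limma, adjusted p = 0.0353), while Nfkb1 had 0.03 and Hif1a 0.46. Of 8 tested negative regulators 1 passed, lower, and that was Il1rn, the interleukin-1 receptor antagonist, which was the one gene of the panel past the threshold. Its log2 difference was -0.76 (limma, adjusted p = 0.020). The call was lost without any 1 library other than FHKO library 2 (limma, adjusted p of 0.0632 to 0.169 in 5 of 6 such fits), with differences from -0.79 to -0.72 over all 6. Dusp1, a phosphatase that switches off MAP kinases, and Nfkbiz, a nuclear regulator of NF-kB, had 0.35 and 0.48 (limma, adjusted p = 0.141 and 0.148), which became 0.06 and 0.19 under equal library medians. The median of this list was 0.09, or -0.20 under equal library medians. Before adjustment, a p under 0.05 was reached by 0 of the 15 mediators, 2 of the 6 receptors (both higher), 0 of the 5 surface markers and 1 of the 8 sensors and adaptors (higher). It was reached by 3 of the 11 transcription factors (2 higher, 1 lower) and 3 of the 8 negative regulators (2 higher, 1 lower), against 22.4% of all tested genes.

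**Figure D4:**
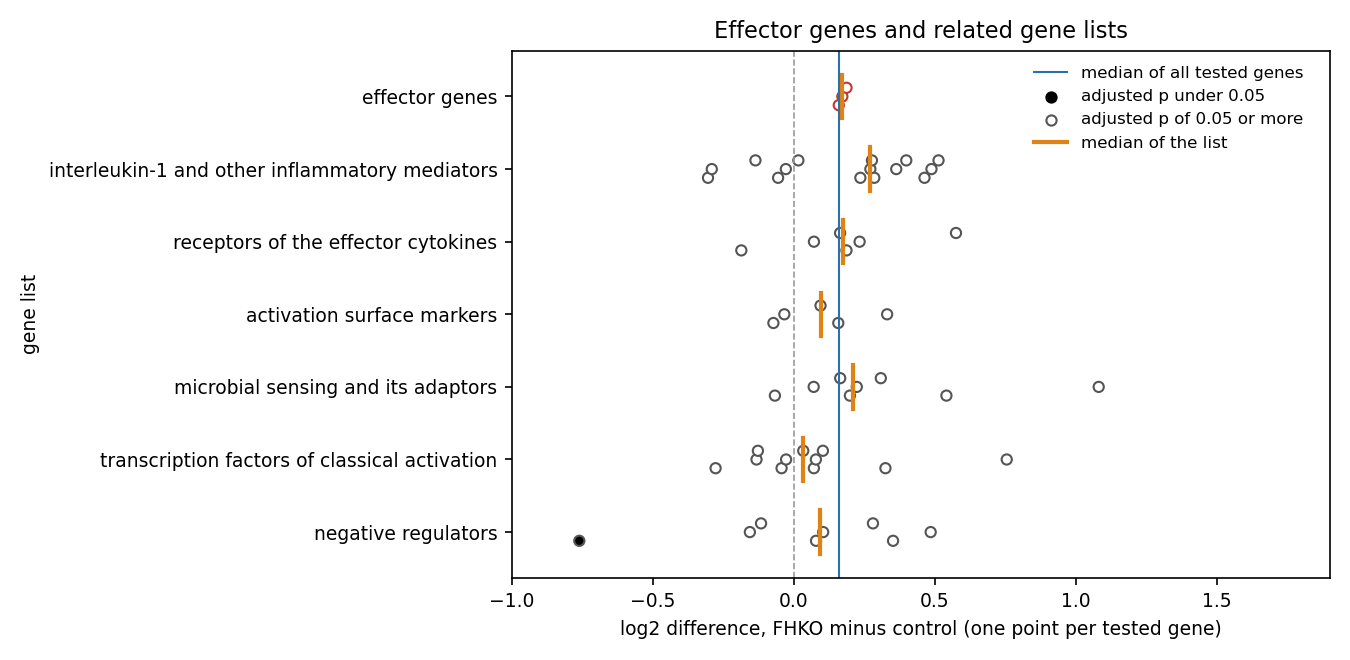
Log2 difference (FHKO minus control) of each tested gene, by list, with the list's median in orange and the median of all 490 tested genes (0.16) as the blue line. The 3 tested effectors (red outline) cluster at that line, and Il1rn among the negative regulators is the one filled point.

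Genes most like each tested effector over the 6 libraries were found by Pearson's correlation of log2 values, as a description only. The libraries share depth and scaling, and 489 other genes were searched, so high values are easily reached with 6 points. Tnf was most like Stat3 (r = 0.98), which had 576, 616 and 602 in FHKO libraries, against 564, 532 and 544 in control libraries. It was next most like Ccl27a (r = 0.94), which lay at 18.2 to 37.5, near background. Osm was most like Nr4a2 (r = 0.98), which lay at 18.2 to 26.3, near background, and next F11r (r = 0.96). Nos2, itself above background in 1 library only, was most like Fasn and Vsir (r = 0.98 for each).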

How the data were processed

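RNA of 6 libraries, 3 FHKO and 3 control, was grouped by title, and the genotype labels gave the same groups. No label used here names the platform or software. The authors deposited 1 table of a normalised signal for 753 genes with 8 negative and 6 positive control rows. By the values themselves, 99.6% of the deposited gene values were whole multiples of 1 step per library (tolerance 0.0051), and a few stood at exactly 1, a likely floor. The geometric mean of 16 of 20 reference genes was equal in all libraries, so the deposited factors set these equal. Control rows were whole numbers and were multiplied by the step here.

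Genes at 20 or more in at least 3 libraries (490) were tested on log2(value + 1), which understates the change of low genes, with limma 3.58.1 (lmFit, eBayes with trend) in R 4.3.3, two-sided, adjusted by Benjamini-Hochberg over all 490 genes at 0.05. A run on simulated data, with independent noise for each gene, required that large planted changes were recovered. It also set limits on false calls, bias and wrong direction. It does not bear on differences as small as those of the effectors. No pairing was used in the main fit, and whether same-numbered libraries were prepared together could not be settled. The members and lists were chosen with earlier results of these data known. The genes named were the 10 members, the 3 of smallest p per list and the 2 most alike in pattern per tested member, besides those said to be chosen after their values were seen. Alternatives were the replicate block, each library left out, other scalings, background subtraction, pseudocounts, filters and eBayes settings. Chromosomal positions are those of the RefSeq promoter table. Figures were drawn with matplotlib 3.10.9.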

Additional observations from a re-analysis of the deposited data

How the results depend on the processing

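Under the alternatives, 0 of the effectors were called by limma in any setting (lowest unadjusted p = 0.0575, Tnf in the scaling without Hprt), and 2 of the 10 were above background in all libraries whether the limit was the negative-control mean, that mean plus 2 or 3 SD, or the highest negative row. Over the whole panel, limma called 1 gene with the deposited scaling, 14 with library medians set equal, 0 with the replicate block and 0 to 3 with 1 library left out. The 3 genes, Il1rn among them, were called without FHKO library 2. Leaving out any other library gave 0.

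The direction of the tested effectors turned with the scaling. With library medians set equal the log2 differences were -0.11 for Tnf, -0.12 for Osm and -0.12 for Nos2, and after quantile normalisation -0.0836 for Tnf, -0.0021 for Osm and -0.0847 for Nos2. For Nos2 it also turned without control library 3, to -0.0900. With 1 library left out Nos2 ranged from -0.0900 to 0.51 (without control library 1), Osm from 0.10 to 0.27 and Tnf from 0.14 to 0.23. The adjusted p of Tnf over its 17 alternatives was 0.205 to 0.730. The call of Il1rn was lost with the replicate block (adjusted p = 0.0991). With the block the effectors' differences were the same and the adjusted p was 0.450 for Tnf, 0.596 for Osm and 0.832 for Nos2. The correlation of same-numbered libraries' deviations was 0.26, -0.03 and -0.29, within the -0.45 to 0.53 of the other pairs. With 3 libraries per group this cannot show whether same-numbered libraries shared a preparation. The scaling without Hprt was chosen after seeing the data, and with it the median gene lay at 0.20. The filter at the negative-control mean plus 2 SD left Nos2 untested. For the 7 effectors not tested in the main fit, all 14 values under a pseudocount of 20 or median scaling moved by less than 1 SD. That SD, between libraries of a group, is wide at 0.40 to 0.71. Median scaling lowered the median gene by only 0.29, and a larger pseudocount brings low values closer together. A move under 1 SD was thus largely fixed in advance and does not show that these differences are stable. With median scaling Il6 turned from 0.01 to -0.25 and Acod1 from 0.12 to -0.14, while the others kept their sign. edgeR and DESeq2 were planned and not run, because the table holds normalised values and 1 way of recovering counts failed in FHKO library 2 and control library 2. Background sets the limit for 8 of the 10 effectors.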

Other observations

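Among the genes of classical activation, Tlr4, Tlr7 and Hif1a spread widely between libraries of the same group, a pattern picked after the values were seen. Tlr7, the sensor of single-stranded RNA, had 301, 439 and 189 in FHKO libraries 1 to 3, against 151, 199 and 268 in control libraries 1 to 3. Hif1a had 655, 1101 and 698 in FHKO libraries, against 310, 479 and 705 in control libraries. FHKO library 2 was the highest and control library 1 the lowest for all 3 genes. FHKO library 2 also had the most recovered counts (1348064), while FHKO library 1 (717503) and control library 1 (725234) had the fewest. A part of depth in this pattern was not tested. Tnf, in contrast, stayed between 266 and 340 in all 6 libraries.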
